A study of Mus musculus with 13 samples.

Results

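The comparison set the glomerular transcriptomes of 4 mice collected 5 days after an injection of rabbit anti-THSD7A IgG (the day 5 MN group, MN standing for membranous nephropathy) against those of 5 mice that had received control IgG from preimmune rabbits. All were wild-type Balb/c mice given 2.0 mg of IgG intraperitoneally, and the study's methods state that only males entered this model. The methods give an age of 14 to 15 weeks for mice of this model, in a passage on its knockout lines and their littermates, and give no separate age for the sequenced mice. Control mice of both collection days form 1 group in which the day of each mouse is not given. The kidneys were perfused with magnetic beads, and glomeruli were collected with a magnet after enzymatic digestion or mechanical dissociation of the tissue. The methods name the mechanical route for co-immunoprecipitation and do not state the route of the RNA libraries outright. Each RNA library came from 1 mouse. Values were TPM, transcript abundances corrected for transcript length and library total, and the 14322 of 35967 gene symbols with at least 1 TPM in at least 4 of the 13 libraries of the series were tested. The remaining 4 libraries of the series, from mice 1 day after anti-THSD7A IgG, entered the estimate of the spread and are quoted for 10 genes.

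THSD7A is a membrane protein at the foot processes of podocytes, the epithelial cells that cover the glomerular capillaries, and antibodies against it cause a form of membranous nephropathy in which IgG is deposited on the outer side of the capillary wall. That wall consists of a fenestrated endothelium, a basement membrane of type IV collagen, laminin, nidogen and proteoglycans, and the podocyte layer with its slit diaphragms. Injured podocytes are known for losing foot processes, rearranging their actin cytoskeleton and altering the matrix they lay down, and the parietal epithelial cells of Bowman's capsule can become activated.

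At day 5, genes of the basement membrane (5 of 31 tested, among them *Nid2*) and of other matrix (6 of 45, among them *Col5a3* and *Sparc*) were higher in the glomeruli of day 5 MN mice. So were genes of matrix proteases, protease-like proteins and inhibitors (8 of 39, among them *Adamts9*) and of the actin cytoskeleton (8 of 93, among them *Tagln*, *Tpm1* and *Myl9*). None of these lists had a gene called lower. Lower genes included the podocyte transcripts *Thsd7a*, *Ddn* and *Plce1* and the polarity and junction transcripts *Pard3b*, *Pals1* and *Cgnl1*, but both of those lists also held 2 genes called higher, of 35 and 72 tested, and their median log2 fold changes were 0.01 and -0.02. A gene was called when its adjusted p was below 0.05 (limma, Benjamini-Hochberg adjustment over all 14322 symbols) and its log2 fold change, on the scale of log2(TPM + 0.5), exceeded 0.5 in size. By that rule 460 genes were called, 3.21% of those tested, of which 347 were higher (2.42%) and 113 lower (0.789%). Genes of a cell cycle list made up 162 of the 460: 161 of its 362 tested members were higher and 1 was lower, the histone gene *H2ac8* (log2 fold change -1.24, adjusted p = 0.0145, limma). Outside that list, 298 of 13960 genes were called, 186 higher (1.33%) and 112 lower (0.802%), and these are described here. Shares of other lists are set beside those of all genes. For lists without cell cycle genes the 1.33% and 0.802% are the closer background. The gene lists were chosen with earlier results of these data known. Their shares of called genes therefore describe the calls and are no independent evidence for a list.

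**Figure D1:**
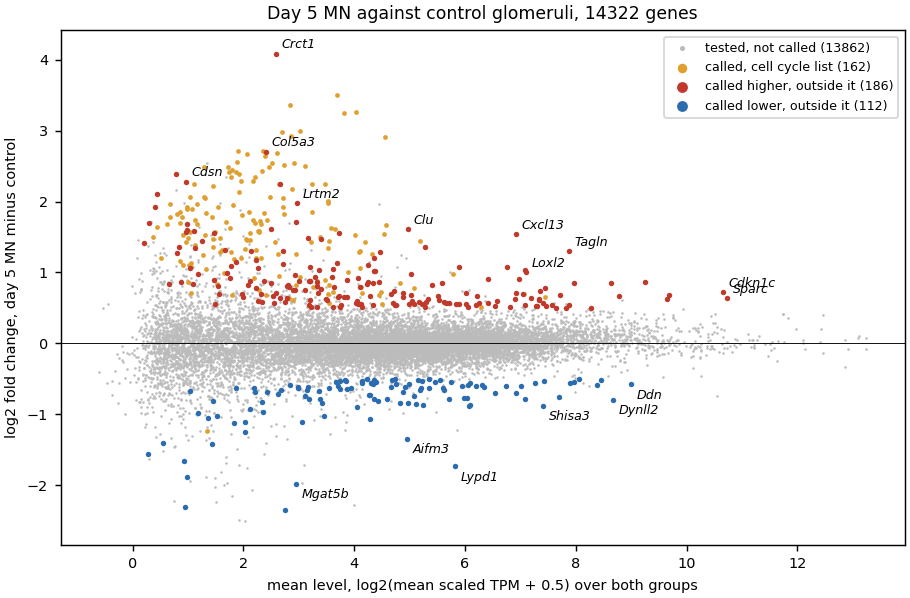
Log2 fold change of day 5 MN against control (vertical axis) against the mean level (horizontal axis, log2 of scaled TPM + 0.5) for each of the 14322 tested genes. Grey points were not called, orange points are the 162 called cell cycle genes, and red and blue points are the 186 genes called higher and the 112 called lower outside that list. The largest increases sit among genes of low level, while called genes of high level such as *Sparc* and *Dynll2* lie within about 1 log2 unit of 0.

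Of the 298 called genes outside the cell cycle list, 273 had day 5 MN and control libraries that did not overlap, 175 higher and 98 lower. Over all genes tested, 6.38% lay entirely above and 4.36% entirely below the controls. A change of at least 2-fold was reached by 68 of the 298, 50 higher and 18 lower, and 49 had a mean level over both groups of at least 100 scaled TPM, 34 of them higher and 15 lower. Each call was repeated in 9 refits that each left out 1 control or day 5 MN library, and 156 of the 298 were called in all 9, 101 higher and 55 lower. For a named gene that lost its call in some refits, the number kept, the libraries and the value farthest from the threshold are given beside it. Without the fold threshold, 591 of all genes passed the adjusted p upward and 285 downward (limma), and an unadjusted p under 0.05 was reached by 1576 and 1298.

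Deposited TPM summed to between 989773.713 and 996064.364 per library, between 46.5% and 49.5% of symbols stood at 0, and scaling factors between 0.9554 and 1.042 were applied to bring the libraries to a common median. The read depth behind these values is unknown because the table gives no counts. Spearman correlations over genes were 0.9745 to 0.9881 among controls, 0.9824 to 0.9872 among day 5 MN libraries and 0.9727 to 0.9849 between the groups.

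Markers of the cell types in the preparation were summed to check the labelled tissue. Summed podocyte markers stood at 13892 to 19187 scaled TPM in controls and 16303 to 17608 in day 5 MN libraries, and endothelial markers at 13048 to 15704 and 13431 to 17726. Mesangial markers summed to 5752 to 7694 in controls and 7037 to 7802 at day 5, smooth muscle and renin cell markers to 768 to 1197 and 1194 to 1749, and parietal epithelial markers to 145 to 215 and 184 to 200. Proximal tubule markers summed to 3897 to 12289 in controls and 4759 to 5246 at day 5. Control replicate 5 was the library at 12289, and the next highest was at 5808. Distal tubule and collecting duct markers summed to 332 to 683 in controls and 493 to 635 at day 5. None of 15 mesangial, 21 proximal tubule and 13 distal markers was called by limma, and 1, 1 and 2 of them had an unadjusted p under 0.05. Of all 14322 genes, 1576 reached that p upward and 1298 downward. Leukocyte markers were low, at 153 to 222 in controls and 211 to 281 at day 5, and the lineage markers *Cd3e*, *Cd3g*, *Cd79a*, *Ms4a1*, *Adgre1*, *Cx3cr1*, *Ly6g* and *Nkg7* were below the level required for testing. In such bulk tissue, fewer cells of a type and less RNA per cell cannot be told apart.

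**Figure D2:**
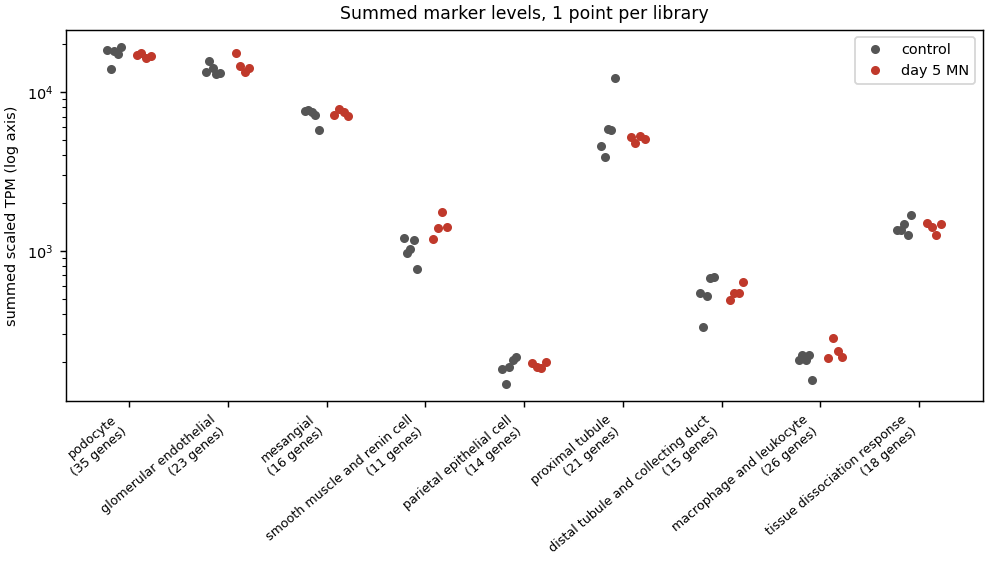
Summed scaled TPM (logarithmic vertical axis) of 9 marker lists in each control and day 5 MN library, 1 point per library. Podocyte and endothelial markers carry the highest sums, and control replicate 5 stands above the rest for proximal tubule markers at 12289.

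*Thsd7a*, the gene of the antigen, stood at 180.4, 111, 186, 169 and 209.8 scaled TPM in control replicates 1 to 5 and at 80.9, 95.7, 101 and 112 in day 5 MN replicates 1 to 4. It fell to about the level of the lowest control, since control replicate 2 lay just below the highest day 5 MN library and all other controls lay above. The log2 fold change was -0.79 ± 0.16 (SE, adjusted p = 0.0112, limma), and it was called in all 9 refits.

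Predicted transcripts left aside, the largest increases included genes almost silent in control glomeruli. Such genes entered the test only through libraries of mice given anti-THSD7A IgG, so the filter favours low controls beside higher day 5 MN values. Of the 298 called genes outside the cell cycle list, 25 had a mean under 1 scaled TPM in the lower group, 20 higher and 5 lower. *Crct1*, a gene of the epidermal differentiation complex (chr3:92921508-92923001, GRCm39, minus strand), was listed at 0, 0.198, 0, 0 and 0 scaled TPM in the 5 control libraries and at 21.96, 9.08, 10.5 and 2.40 in the 4 day 5 MN libraries. Day 5 MN replicate 1 was the highest and replicate 4 the lowest, and every day 5 MN library was above every control (log2 fold change 4.09 ± 0.47 SE, adjusted p = 0.000163, limma). *Cdsn*, which encodes corneodesmosin, an adhesion protein of cornified epithelium (chr17:35863025-35868077, plus strand), stood at 0.158, 0.184, 0.141, 0.145 and 0.159 in controls and 3.07, 3.26, 2.24 and 2.33 at day 5. Its control libraries were tightly grouped and its day 5 MN libraries rose together (log2 fold change 2.28 ± 0.20 SE, adjusted p = 3.02e-05, limma). In mice 1 day after injection *Crct1* was listed at 0.558, 0, 0 and 0 and *Cdsn* at 1.22, 1.41, 1.25 and 0.762.

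*Col5a3*, the gene of the alpha-3 chain of type V collagen (chr9:20681337-20726418, minus strand), was at 0.807, 1.09, 0.814, 0.623 and 0.745 scaled TPM in controls and 11.1, 13.3, 7.30 and 3.74 at day 5. The rise was seen in all 4 day 5 MN mice, with replicate 2 highest and replicate 4 lowest (log2 fold change 2.71 ± 0.28 SE, adjusted p = 7.96e-05, limma). At day 1 it had stood at 0.986, 0.874, 0.967 and 1.13, within or just above the control range. *Lrtm2*, a leucine-rich repeat membrane protein (chr6:119292094-119307778, minus strand), rose from 2.57, 2.24, 2.09, 3.25 and 3.20 in controls to 13.8, 12.5, 10.5 and 10.95 at day 5 (log2 fold change 1.98 ± 0.15 SE, adjusted p = 1.7e-05, limma), with day 1 values of 6.37, 8.49, 6.46 and 5.65 lying between the other groups. Both genes were called in all 9 refits.

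*Igfbp2*, a secreted binding protein for insulin-like growth factors (chr1:72863606-72891634, plus strand), stood at 0.632, 0.512, 2.62, 3.17 and 2.82 in controls and 8.78, 13.03, 9.36 and 7.89 at day 5. Controls fell into low values in replicates 1 and 2 and higher ones in replicates 3 to 5, and all were below the day 5 MN libraries (log2 fold change 2.25 ± 0.44 SE, adjusted p = 0.0078, limma). Day 1 libraries had 3.55, 0.947, 2.91 and 4.50. *Cdkn2a*, which encodes the cell cycle inhibitors p16INK4a and p19ARF (chr4:89192708-89212890, minus strand), was listed at 0.121, 0, 0.136, 0 and 0 in controls and at 1.31, 2.17, 1.60 and 1.38 at day 5 (log2 fold change 1.93 ± 0.26 SE, adjusted p = 0.000639, limma). All 4 day 5 MN mice were above 1 scaled TPM and no control was, a pattern that the filter favours.

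Among the next largest increases were genes of low level, and *Clu*, of higher level and with a log2 fold change of 1.61, is described with the complement genes. *Gfap*, an intermediate filament best known from astrocytes, ranged from 0 to 0.196 in controls and from 1.09 to 1.77 at day 5 (log2 fold change 1.70 ± 0.38 SE, adjusted p = 0.0173, limma, kept in 8 of 9 refits, lost without day 5 MN replicate 2, adjusted p up to 0.064 by limma). *Slfn9*, of the Schlafen family, rose from between 1.89 and 2.67 to between 5.47 and 10.3 (log2 fold change 1.62 ± 0.20 SE, adjusted p = 0.000266, limma), but its longest transcript has near-identical copies in *Slfn8* and *Slfn10*, between which reads could be split. *Spon2*, a secreted matrix protein of the spondin family, rose from between 0.169 and 0.713 to between 1.56 and 4.78 (log2 fold change 1.60), *Ankle1*, a DNA-cutting enzyme, from between 0.244 and 0.778 to between 1.16 and 3.76 (log2 fold change 1.69), and *Tent5b*, a poly(A)-adding enzyme, from between 0.295 and 0.830 to between 1.80 and 5.44 (log2 fold change 1.59, kept in 8 of 9 refits, lost without day 5 MN replicate 1, adjusted p up to 0.0519 by limma).

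**Figure D3:**
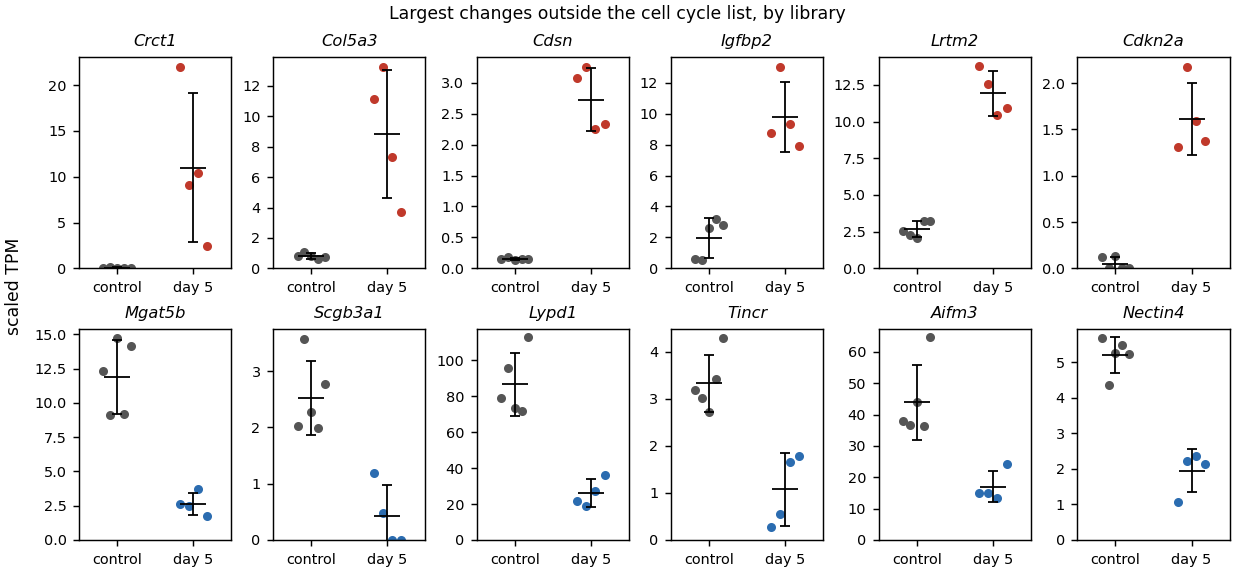
Scaled TPM (vertical axes, from 0) of the 6 largest increases and 6 largest decreases among called genes without overlap, outside the cell cycle list and the predicted transcripts, in the 5 control and 4 day 5 MN libraries. Points are libraries, horizontal lines are group means and bars are ± 1 SD. In each panel the groups do not overlap, and *Crct1*, *Cdsn* and *Cdkn2a* are near 0 in the controls.

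The basement membrane list contained 5 called genes of 31 tested, all higher (16.1% against a background of 2.42%), with a list median of 0.30. *Nid2*, the gene of nidogen-2, which links laminin and type IV collagen networks, stood at 69.5, 62.4, 54.4, 59.6 and 50.5 scaled TPM in controls and 112, 115, 109 and 108 at day 5. The 4 day 5 MN mice lay close together and far above all controls (log2 fold change 0.91 ± 0.09 SE, adjusted p = 5.03e-05, limma). *Lamc1*, the laminin gamma-1 chain, rose from 74.4, 68.2, 64.2, 68.7 and 65.8 to 106, 108, 102 and 92.4 (log2 fold change 0.58 ± 0.08 SE, adjusted p = 0.000821, limma). Its increase was smaller but again without overlap.

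Among the type IV collagen chains, *Col4a1* stood at 299.8, 275, 362, 297 and 191 in controls and 551, 628, 452 and 408 at day 5, and *Col4a2* at 200.2, 161, 229, 189.5 and 114 and 331, 399, 305 and 239. Both genes, which share 1 promoter region on chromosome 8 with starts 21 bases apart on opposite strands (GRCm38.p6), were lowest in control replicate 5, the library with the high proximal tubule sum. The rise of *Col4a1* was 0.85 ± 0.19 (SE) in log2 units (adjusted p = 0.0191 by limma, kept in 7 of 9 refits, lost without day 5 MN replicate 1 or 2, adjusted p up to 0.0733 by limma) and that of *Col4a2* 0.85 ± 0.22 (adjusted p = 0.0403 by limma, kept in 2 of 9 refits, those without control replicate 3 or day 5 MN replicate 4, adjusted p up to 0.13 by limma). *Col4a5*, a chain of the mature glomerular collagen network, rose from 49.99, 33.02, 54.3, 50.7 and 56.9 to 82.2, 87.8, 74.5 and 72.2 (log2 fold change 0.71 ± 0.14 SE, adjusted p = 0.00984, limma), with control replicate 2 below the other controls.

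The partners of *Col4a5* in that mature network differed from it in size of change. *Col4a3* and *Col4a4* had log2 fold changes of 0.03 and 0.02, and the laminin chains *Lama5*, *Lamb2* and *Lamb1* had 0.04, 0.02 and 0.16, none of them called. *Hspg2*, the gene of the heparan sulphate proteoglycan perlecan, passed the adjusted p but not the fold threshold (log2 fold change 0.39 ± 0.08 SE, adjusted p = 0.0135, limma).

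Interstitial and matricellular genes showed 6 called members of 45, all higher (13.3%). *Sparc*, a collagen-binding matricellular protein, was among the most abundant of all called genes, at 1390.4, 1275, 1319, 1336 and 1324 scaled TPM in controls and 2259.6, 2135, 1998 and 1907 at day 5. Controls varied little around their mean of 1329 ± 41.5 (SD, n = 5) and the day 5 MN mean was 2075 ± 155 (SD, n = 4), which differed by 0.64 ± 0.06 (SE) on the log2 scale (adjusted p = 3.02e-05, limma). *Thbs2*, thrombospondin-2, rose from between 15.9 and 20.7 to between 26.4 and 33.7 (log2 fold change 0.70), and *Ltbp1*, which binds latent TGF-beta, from between 36.1 and 50.1 to between 56.5 and 67.1 (log2 fold change 0.57), and the gene of tenascin-C was called higher as well. *Col5a2* had 10.5 to 16.2 and 19.4 to 20.8 (log2 fold change 0.55, kept in 8 of 9 refits, lost without control replicate 5, log2 fold change as small as 0.46). *Fn1*, fibronectin, had a log2 fold change of 0.38 (adjusted p = 0.458, limma) and *Col1a1*, the main chain of fibrillar type I collagen, 0.80 (adjusted p = 0.0641, limma), and neither was called.

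Of the enzymes that modify matrix proteins, *Loxl2*, a lysyl oxidase that cross-links collagen, stood at 91.9, 63.1, 95.7, 101 and 103 scaled TPM in controls and 208, 201, 167 and 152 at day 5. All day 5 MN mice were above all controls, of which control replicate 2 was the lowest (log2 fold change 1.01 ± 0.15 SE, adjusted p = 0.00131, limma). *Plod2*, which hydroxylates collagen lysines, rose from 85.2, 80.6, 93.8, 87.7 and 108 to 176, 141, 144 and 135 (log2 fold change 0.71 ± 0.13 SE, adjusted p = 0.00625, limma). *Sulf1*, an enzyme that removes sulphate from heparan sulphate, fell from between 31.2 and 54.1 to between 26.4 and 29.8 (log2 fold change -0.65 ± 0.14 SE, adjusted p = 0.0135, limma), with the day 5 MN libraries nearly equal. These were the called members among 24 of the list tested (8.33% higher and 4.17% lower, against 2.42% and 0.789% of all genes).

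Proteases and inhibitors acting on the matrix included 8 called genes of 39, all higher (20.5%). *Adamts9*, a secreted proteoglycan-cleaving protease, stood at 6.42, 6.67, 7.98, 8.002 and 8.88 in controls and 17.3, 17.7, 17.98 and 15.7 at day 5, so that every day 5 MN mouse lay far above the highest control (log2 fold change 1.13 ± 0.11 SE, adjusted p = 5.47e-05, limma). *Adamtsl2*, a protease-like glycoprotein that binds to microfibrils, rose from 10.8, 12.7, 15.3, 10.2 and 10.2 to 40.6, 23.8, 24.1 and 25.1, with day 5 MN replicate 1 far above the other 3 (log2 fold change 1.21 ± 0.16 SE, adjusted p = 0.000639, limma). *Adam12*, a membrane-bound protease, rose from between 7.69 and 11.2 to between 15.3 and 21.03 (log2 fold change 0.90) and the abundant *Adamts1* from between 139 and 181 to between 252 and 269 (log2 fold change 0.68). *Timp1*, an inhibitor of matrix metalloproteinases, was at 0.954 to 2.20 and 2.26 to 5.52 (log2 fold change 0.99, kept in 2 of 9 refits, those without control replicate 2 or day 5 MN replicate 4, adjusted p up to 0.142 by limma), and *Adamts16* at 19.1 to 25.7 and 28.6 to 43.1 (log2 fold change 0.72, kept in 2 of 9 refits, those without control replicate 1 or day 5 MN replicate 1, adjusted p up to 0.121 by limma). *Adam15* and *Mmp17* had the smallest called changes of the 8 (log2 fold change 0.52 and 0.55). *Adam15* was kept in 5 of 9 refits, lost without control replicate 2 or 5 or day 5 MN replicate 1 or 2, adjusted p up to 0.0503 by limma and log2 fold change as small as 0.41, and *Mmp17* was kept in 8 of 9 refits, lost without control replicate 5, log2 fold change as small as 0.47.

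In the plasminogen system and serpin list 2 of 25 were called, both higher (8%). *F2rl3*, the protease-activated receptor PAR4, rose from between 8.87 and 12.05 to between 14.8 and 18.3 (log2 fold change 0.66 ± 0.10 SE, adjusted p = 0.00168, limma), and *Serpinb8*, a serine protease inhibitor, had 1.18 to 2.14 in controls and 1.94 to 5.66 at day 5 with an overlap between the groups (log2 fold change 1.09, kept in 6 of 9 refits, lost without day 5 MN replicate 2, 3 or 4, adjusted p up to 0.0774 by limma). *F8*, coagulation factor VIII, which lies outside the list and was picked after its values were seen, fell from between 20.5 and 25.8 to between 12.5 and 15.8 (log2 fold change -0.73 ± 0.11 SE, adjusted p = 0.00124, limma).

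**Figure D4:**
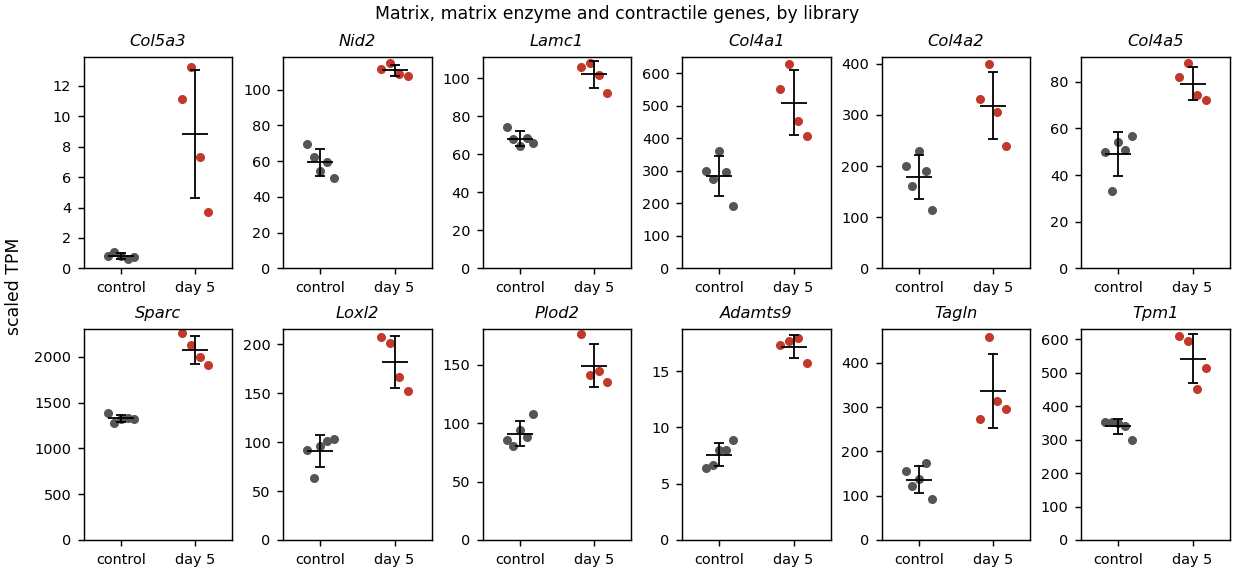
Scaled TPM (vertical axes, from 0) of 10 matrix genes and 2 contractile genes in the 5 control and 4 day 5 MN libraries. Points are libraries, horizontal lines are group means and bars are ± 1 SD. Every panel shows higher day 5 MN values without overlap, with *Nid2* tightly grouped and *Col4a1* and *Col4a2* lowest in control replicate 5.

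Genes of the actin cytoskeleton and its contractile apparatus were called in 8 of 93 cases, all higher (8.6%). *Tagln*, the actin-binding protein transgelin that is most abundant in smooth muscle, stood at 155, 121, 139, 174 and 92.8 scaled TPM in controls and 274, 459, 315 and 296 at day 5. Control replicate 5 was lowest, day 5 MN replicate 2 highest, and the log2 fold change of 1.30 ± 0.18 (SE, adjusted p = 0.000639, limma) was the largest among its called members. *Myl9*, the regulatory light chain of non-sarcomeric myosin, rose from 663, 619.5, 713, 621 and 516 to 1182, 898, 913 and 879.8 (log2 fold change 0.62 ± 0.10 SE, adjusted p = 0.00228, limma) and the tropomyosin *Tpm1* from 352, 353, 350.3, 341 and 300.1 to 609.9, 594, 452 and 514 (log2 fold change 0.67 ± 0.10 SE, adjusted p = 0.000938, limma). Each was higher in all 4 day 5 MN mice than in any control.

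Smaller contractile and adhesion-related increases were those of *Tpm2*, a second tropomyosin (98.7 to 161 and 177 to 219.6, kept in 8 of 9 refits, lost without control replicate 5, log2 fold change as small as 0.46), *Capg*, an actin filament capping protein (34.5 to 43.8 and 45.9 to 65.5, kept in 7 of 9 refits, lost without day 5 MN replicate 1 or 2, adjusted p up to 0.0598 by limma), and *Zyx*, zyxin of focal adhesions (85.1 to 105 and 124 to 139, kept in 5 of 9 refits, lost without control replicate 4 or 5 or day 5 MN replicate 1 or 2, log2 fold change as small as 0.48). *Marcks*, a membrane-bound actin regulator, was kept in 8 of 9 refits, lost without control replicate 5, log2 fold change as small as 0.46, and *Evl*, an actin polymerization factor whose groups overlapped, was kept in 4 of 9 refits, lost without control replicate 3, 4 or 5 or day 5 MN replicate 3 or 4, adjusted p up to 0.074 by limma and log2 fold change as small as 0.43. *Acta2*, smooth muscle alpha-actin, had a log2 fold change of 0.55 and was not called (adjusted p = 0.14, limma). In the integrin and focal adhesion list of 44 genes, *Itgb1*, the beta-1 chain through which podocytes hold on to laminin, passed the adjusted p with a log2 fold change of 0.36 (adjusted p = 0.00787, limma), and *Itga3*, its partner chain, had 0.11. The summed smooth muscle and renin cell markers, of which *Tagln* is 1 of 10 and the single called member, reached 768 to 1197 in controls and 1194 to 1749 at day 5, and their part in the contractile genes was not tested.

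The CArG box, the element bound by serum response factor, was searched on both strands in RefSeq promoter windows of GRCm38.p6. Windows ran from 250 bases before to 50 after each annotated start. Among the windows of genes called higher outside the cell cycle list 4 of 173 held it (2.31%), beside 1.33% of 13655 windows of tested genes, and these were the windows of *Myl9*, *Myadm*, *Glipr2* and the spindle gene *Ccsap*. The parts before the start are shown for the first 3, which were chosen after the matches were seen as genes of the cytoskeleton and membranes, with the match in capitals. They are *Myl9* at chr2:156775214-156775463 with CCTAATAAGG beginning 161 bases before the start, *Myadm*, a membrane raft protein, at chr7:3292778-3293027 with CCTTATAAGG 191 bases before it, and *Glipr2*, a Golgi-associated protein, at chr4:43957452-43957701 with CCTTATAAGG 84 bases before it, all on the plus strand.
Myl9: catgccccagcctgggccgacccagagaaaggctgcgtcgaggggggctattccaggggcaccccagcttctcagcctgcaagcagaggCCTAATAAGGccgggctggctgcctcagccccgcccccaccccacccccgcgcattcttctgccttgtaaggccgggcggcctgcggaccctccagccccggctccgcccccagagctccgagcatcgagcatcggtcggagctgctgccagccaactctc
Myadm: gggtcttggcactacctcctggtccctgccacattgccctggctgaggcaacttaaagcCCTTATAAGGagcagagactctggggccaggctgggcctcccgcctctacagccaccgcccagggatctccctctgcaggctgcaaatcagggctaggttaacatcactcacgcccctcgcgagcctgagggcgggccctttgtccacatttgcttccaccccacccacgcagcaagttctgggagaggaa
Glipr2: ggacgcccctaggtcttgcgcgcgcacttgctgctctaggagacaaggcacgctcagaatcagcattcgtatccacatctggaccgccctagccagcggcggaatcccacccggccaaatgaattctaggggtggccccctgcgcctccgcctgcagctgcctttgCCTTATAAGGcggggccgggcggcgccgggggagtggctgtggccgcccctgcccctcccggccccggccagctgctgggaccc
*Myadm* had 133 to 157 scaled TPM in controls and 188 to 251 at day 5 (log2 fold change 0.53, kept in 8 of 9 refits, lost without day 5 MN replicate 1, log2 fold change as small as 0.44), and *Glipr2* 4.06 to 7.43 and 8.24 to 11.7 (log2 fold change 0.75, kept in 4 of 9 refits, lost without control replicate 3 or 4 or day 5 MN replicate 1, 2 or 4, adjusted p up to 0.0961 by limma). A match is a description of the letters in the window and says nothing of binding.

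Intermediate filament genes moved in both directions. *Vim*, vimentin, the main intermediate filament of podocytes and mesenchymal cells, stood at 666, 709.7, 601, 596 and 588 scaled TPM in controls and 1202, 1003, 954 and 919 at day 5 (log2 fold change 0.69 ± 0.09 SE, adjusted p = 0.000355, limma). *Krt7*, a simple-epithelium keratin, stood at 92.2, 69.01, 82.9, 102 and 86.9 in controls and 36.6, 44.1, 62.9 and 44.5 at day 5, where every day 5 MN mouse was below every control (log2 fold change -0.89 ± 0.14 SE, adjusted p = 0.00145, limma). With *Gfap*, these were the called genes of 16 tested (12.5% higher and 6.25% lower, against 2.42% and 0.789% of all genes). *Tubb6*, a beta-tubulin outside the lists that was picked after its values were seen, rose from between 12.03 and 14.2 to between 22.6 and 32.1 (log2 fold change 1.02 ± 0.10 SE, adjusted p = 6.09e-05, limma).

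Genes of small calcium-binding and sugar-binding proteins were also among those called. *S100a6*, the calcium-binding protein calcyclin, stood at 494, 443, 364, 399 and 434 in controls and 1011, 873, 655 and 623 at day 5 (log2 fold change 0.87 ± 0.13 SE, adjusted p = 0.00131, limma). Day 5 MN replicates 1 and 2 were higher than replicates 3 and 4, and all were above the controls. The galectin genes that follow were picked after their values were seen. *Lgals1* and *Lgals3* rose from between 76.7 and 91.6 to between 143 and 189.5 (log2 fold change 0.91) and from between 3.68 and 9.73 to between 12.4 and 33.9 (log2 fold change 1.56), and *Lgals4* fell from between 22.3 and 28.1 to between 13.5 and 16.2 (log2 fold change -0.78). All 3 were called in every refit.

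Among parietal epithelial markers 2 of 13 were called, both higher (15.4%). *Cd44*, a hyaluronan receptor that marks activated parietal cells, stood at 3.53, 2.17, 3.49, 2.87 and 3.52 scaled TPM in controls and 9.03, 4.63, 5.19 and 6.15 at day 5 (log2 fold change 0.88 ± 0.19 SE, adjusted p = 0.0135, limma), and *Cldn1*, the tight junction protein claudin-1 of the same cells, at 5.37, 4.37, 6.11, 4.76 and 5.86 and 16.7, 12.9, 8.75 and 9.83 (log2 fold change 1.08 ± 0.19 SE, adjusted p = 0.0036, limma). Both were higher in all day 5 MN mice than in any control, while the list's summed level overlapped between the groups (145 to 215 and 184 to 200) and its median log2 fold change was 0.15. Other members went the other way: of the 13, 9 had a positive and 4 a negative log2 fold change, the lowest -0.73. At an unadjusted p under 0.05 (limma), 3 were higher and 2 lower, beside 1576 and 1298 of all 14322 genes. *Kirrel2*, which encodes the slit diaphragm-related protein NEPH3 and was picked after its values were seen, rose from between 9.84 and 13.6 to between 20.1 and 36.5 (log2 fold change 1.10 ± 0.17 SE, adjusted p = 0.00166, limma).

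Inhibitors of cyclin-dependent kinases had 3 called members of 10, all higher (30% against the 2.42% of all genes), of which *Cdkn2c* also belongs to the cell cycle list. *Cdkn1c*, the gene of p57, an inhibitor that mature podocytes carry at high level, had the largest increase in level of all called genes outside the cell cycle list. It stood at 1328, 989.9, 1347, 1114 and 1339 in controls and 1955, 2302, 1822 and 1967 at day 5, means of 1224 ± 163 (SD, n = 5) and 2012 ± 204 (SD, n = 4) scaled TPM (log2 fold change 0.72 ± 0.10 SE, adjusted p = 0.000708, limma). *Cdkn2c*, the gene of p18, rose from between 7.30 and 13.8 to between 21.6 and 33.1 (log2 fold change 1.27), and *Cdkn2a* is described above. *Cdkn1a*, the p53 target p21, had a log2 fold change of 0.16 and was not called.

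Several called genes outside the cell cycle list are known for work in mitosis or DNA repair, and these were picked after their values were seen. They include *Fam83d* (log2 fold change 1.57) and *Spdl1* (log2 fold change 1.34) of the mitotic spindle and kinetochore, *Prr11* (log2 fold change 1.32), the Holliday junction resolvase *Gen1* (log2 fold change 1.36), the spindle protein *Ccsap* (log2 fold change 0.81) and the nuclear lamin *Lmnb2* (log2 fold change 0.84). *Lmnb2* had the highest level of the 6, with 13.7, 13.4, 13.3, 13.3 and 11.5 scaled TPM in controls and 21.7, 26.00, 26.04 and 21.3 at day 5. All 6 were called in every refit.

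Immediate early and stress-responsive transcription factors were called in 6 of 43 cases, all higher (14%). *Klf4*, a factor that in podocytes maintains the differentiated state, was by far the most abundant, at 117, 116, 119, 103.7 and 115 scaled TPM in controls and 197, 179, 173 and 166 at day 5 (log2 fold change 0.65 ± 0.08 SE, adjusted p = 0.000191, limma). *Mycl*, of the MYC family, rose from 3.03, 2.77, 2.16, 3.88 and 4.66 to 12.3, 6.44, 8.002 and 8.83 (log2 fold change 1.31 ± 0.21 SE, adjusted p = 0.00178, limma) and *Maff*, a small leucine zipper factor, from 6.03, 5.45, 5.94, 7.66 and 5.69 to 19.9, 11.6, 9.96 and 12.4 (log2 fold change 1.03 ± 0.17 SE, adjusted p = 0.00254, limma). For both genes day 5 MN replicate 1 was the highest library. *Egr1*, *Egr3* and *Junb* had log2 fold changes of 0.65, 1.28 and 0.51. *Egr1* was kept in 7 of 9 refits, lost without day 5 MN replicate 1 or 2, adjusted p up to 0.0598 by limma. *Egr3* was kept in 6 of 9 refits, lost without control replicate 3 or 5 or day 5 MN replicate 1, adjusted p up to 0.0689 by limma. *Junb* was kept in 4 of 9 refits, lost without control replicate 2, 4 or 5 or day 5 MN replicate 1 or 2, adjusted p up to 0.0578 by limma and log2 fold change as small as 0.47. Of the dissociation-response markers, which include *Egr1* and *Junb*, these 2 of 18 were called (11.1% against 2.42% of all genes). The summed level was 1253 to 1677 in controls and 1254 to 1494 at day 5, and the part of tissue handling in these genes was not tested.

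The promoter window of *Maff* held the letters GCGTGGGCG, the consensus of the EGR factors, 88 bases before its start, and the 250 bases before that start are shown because both *Maff* and EGR genes were higher (RefSeq, GRCm38.p6, chr15:79347270-79347519, plus strand, match in capitals).
Maff: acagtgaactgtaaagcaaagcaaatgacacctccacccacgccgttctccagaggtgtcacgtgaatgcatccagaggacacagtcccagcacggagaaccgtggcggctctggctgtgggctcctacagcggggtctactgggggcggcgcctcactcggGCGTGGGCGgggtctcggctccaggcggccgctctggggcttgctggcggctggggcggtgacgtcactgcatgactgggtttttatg
Among windows of genes called higher outside the cell cycle list 0.578% held this motif on either strand, beside 1.13% of all tested windows.

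In the NF-kB and TNF receptor list 2 of 43 genes were called, both higher (4.65% against the 2.42% of all genes). *Tnfrsf12a*, the receptor of the cytokine TWEAK, stood at 37.8, 26.7, 40.02, 38.5 and 43.3 scaled TPM in controls and 114, 92.2, 56.8 and 61.6 at day 5, with replicates 1 and 2 above replicates 3 and 4 (log2 fold change 1.07 ± 0.21 SE, adjusted p = 0.00776, limma). *Tnfaip3*, the NF-kB inhibitor A20, rose from 7.27, 7.80, 5.67, 8.65 and 5.07 to 12.2, 12.04, 11.5 and 13.2 (log2 fold change 0.81 ± 0.16 SE, adjusted p = 0.00867, limma). The longest transcript of *Tnfrsf12a* has a near-identical match in a transcript of *Hcfc1r1*, between which reads could be split.

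Of 61 cytokine and chemokine genes tested, 2 were called, both higher (3.28% against 2.42% of all genes and 1.33% outside the cell cycle list). *Cxcl13*, the B-cell attracting chemokine (chr5:96104810-96108927, GRCm39, plus strand), stood at 55.95, 62.5, 44.9, 73.8 and 66.3 scaled TPM in controls and 241, 119.6, 185 and 177 at day 5. Day 5 MN replicate 1 was highest, replicate 2 lowest, and none overlapped with the controls (log2 fold change 1.54 ± 0.26 SE, adjusted p = 0.00256, limma). *Cntf*, ciliary neurotrophic factor, rose from 3.78, 3.53, 4.23, 4.35 and 4.90 to 18.3, 12.8, 11.3 and 8.94 (log2 fold change 1.48 ± 0.17 SE, adjusted p = 0.000176, limma).

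Of 23 complement genes 2 were called higher (8.7%) and 1 lower (4.35%, against 0.789% of all genes). *Clu*, clusterin, a secreted chaperone that also inhibits the terminal complement complex (chr14:66190200-66218999, plus strand), stood at 13.3, 17.1, 14.8, 15.7 and 13.5 in controls and 61.3, 46.4, 46.1 and 34.9 at day 5. The controls were tightly grouped and the lowest day 5 MN mouse lay far above them (log2 fold change 1.61 ± 0.16 SE, adjusted p = 6.09e-05, limma). *C3*, the central complement component, was at 1.44, 0.836, 2.10, 0.974 and 1.90 and 3.90, 2.14, 2.71 and 3.52 (log2 fold change 0.89, adjusted p = 0.041 by limma, kept in 3 of 9 refits, those without control replicate 3 or 5 or day 5 MN replicate 2, adjusted p up to 0.129 by limma). *Masp2*, a protease of the lectin pathway, was lower, at 2.15, 2.30, 1.89, 2.84 and 3.46 and 0.708, 1.02, 1.04 and 1.35 (log2 fold change -0.98 ± 0.20 SE, adjusted p = 0.0108, limma), and its longest transcript has a near-identical match in a transcript of *Tardbp*. The complement regulators *Cd55* and *Cd59a* had log2 fold changes of -0.01 and -0.16, and *C1qa*, made by macrophages, 0.42. None of these was called.

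Of the leukocyte markers, *Ctss*, the lysosomal protease cathepsin S of antigen-presenting cells, was the called gene of 18 tested (5.56% against 2.42% of all genes), with 3.78, 3.59, 3.99, 5.22 and 3.74 scaled TPM in controls and 5.79, 8.40, 8.13 and 5.76 at day 5 (log2 fold change 0.71, adjusted p = 0.0293 by limma, kept in 3 of 9 refits, those without control replicate 4 or day 5 MN replicate 1 or 4, adjusted p up to 0.103 by limma). Of the 18, 17 had a positive log2 fold change, with a median of 0.39, and their summed level was lowest in control replicate 5. The interferon response and MHC list had no gene called higher of 57. At an unadjusted p under 0.05 (limma), 12 were higher and 2 lower, beside 1576 and 1298 of all 14322 genes. In that list 2 genes were called lower (3.51% against 0.789% of all genes), both with overlapping groups. *H2-Q7*, a class Ib histocompatibility gene, had 29.1 to 52.9 in controls and 17.9 to 29.1 at day 5 (log2 fold change -0.74, kept in 4 of 9 refits, lost without control replicate 1, 4 or 5 or day 5 MN replicate 1 or 2, adjusted p up to 0.0818 by limma), and *Ifitm1* 12.4 to 18.8 and 9.17 to 14.2 (log2 fold change -0.52, kept in 2 of 9 refits, those without control replicate 2 or day 5 MN replicate 3, adjusted p up to 0.122 by limma and log2 fold change as small as -0.43).

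Vasoactive signalling had 4 called genes of 46, all higher (8.7%). *Adm*, the vasodilator peptide adrenomedullin, stood at 67.9, 66.3, 85.1, 96.2 and 112 scaled TPM in controls and 283, 159, 106 and 187 at day 5. Replicate 3 at day 5 lay below the highest control, so the groups overlapped (log2 fold change 1.04 ± 0.24 SE, adjusted p = 0.0192, limma, kept in 7 of 9 refits, lost without day 5 MN replicate 1 or 4, adjusted p up to 0.0543 by limma). The 2 genes whose proteins together form an adrenomedullin receptor were higher as well. *Calcrl* stood at 185, 192, 190.4, 183 and 188 and 285, 257, 254 and 269 (log2 fold change 0.50 ± 0.08 SE, adjusted p = 0.00215, limma, kept in 5 of 9 refits, lost without control replicate 1 or 4 or day 5 MN replicate 1 or 4, log2 fold change as small as 0.47), and *Ramp3* at 111, 101, 121, 102 and 108 and 209, 165, 133 and 135 (log2 fold change 0.54 ± 0.15 SE, adjusted p = 0.0474, limma, kept in 2 of 9 refits, those without day 5 MN replicate 3 or 4, adjusted p up to 0.139 by limma and log2 fold change as small as 0.40). *Ednrb*, the endothelin B receptor, rose from 137, 119, 123, 121 and 103 to 265, 196, 179.6 and 174 (log2 fold change 0.74 ± 0.14 SE, adjusted p = 0.00691, limma). *Ramp3* was the called gene of 23 endothelial markers (4.35% against 2.42% of all genes). Of the 23, 21 had a positive log2 fold change (median 0.19), and the part of that shift in these genes was not tested.

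Angiogenic and vascular genes were called 2 up and 2 down of 50 (4% each way, against 2.42% higher and 0.789% lower of all genes). *Aplnr*, the apelin receptor of endothelial cells, rose from between 3.48 and 6.35 to between 7.84 and 11.7 (log2 fold change 0.88). *Angptl2*, a secreted angiopoietin-like protein, fell from 408, 373, 377, 384 and 443 to 229.7, 274, 272 and 286 (log2 fold change -0.58 ± 0.10 SE, adjusted p = 0.00287, limma), and *Vash1*, the angiogenesis inhibitor vasohibin-1, from 44.3, 42.1, 41.2, 45.1 and 48.7 to 27.6, 27.2, 29.2 and 29.7 (log2 fold change -0.63 ± 0.07 SE, adjusted p = 0.000154, limma). *Vegfa*, the growth factor on which the glomerular endothelium depends, had a log2 fold change of -0.35 and was not called. *Bcl6b*, a repressor of endothelial cells picked after its values were seen, had 14.5 to 26.99 and 28.7 to 49.3 (log2 fold change 0.97, kept in 4 of 9 refits, lost without control replicate 3 or 5 or day 5 MN replicate 2, 3 or 4, adjusted p up to 0.0955 by limma).

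Ion channels and gap junctions had 7 genes called higher (6.86% against 2.42% of all genes) and 2 lower (1.96% against 0.789%) of 102. *Kcnh1*, a voltage-gated potassium channel, stood at 1.96, 1.59, 2.47, 2.09 and 2.16 scaled TPM in controls and 6.57, 5.27, 5.10 and 6.12 at day 5 (log2 fold change 1.30 ± 0.14 SE, adjusted p = 0.000142, limma), and *Kcnf1*, a modulatory potassium channel subunit, rose from between 6.89 and 8.998 to between 11.1 and 20.8 (log2 fold change 0.93). *Trpm5*, a calcium-activated cation channel, rose from between 3.63 and 5.64 to between 6.91 and 9.95 (log2 fold change 0.80). *P2rx1*, a receptor for extracellular ATP, rose from between 44.9 and 63.8 to between 75.3 and 118 (log2 fold change 0.67) and the metabotropic *P2ry2* from between 8.43 and 11.1 to between 13.6 and 16.99 (log2 fold change 0.67). *P2rx5* had 0.541 to 1.18 and 1.62 to 3.87 (log2 fold change 1.06, kept in 2 of 9 refits, those without control replicate 4 or day 5 MN replicate 3, adjusted p up to 0.114 by limma), and *P2rx2*, whose groups overlapped, was lower, with 1.83 to 3.52 and 0.844 to 1.85 (log2 fold change -1.05, kept in 2 of 9 refits, those without control replicate 5 or day 5 MN replicate 2, adjusted p up to 0.114 by limma).

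The remaining called channels were *Gja1*, connexin 43 (log2 fold change 0.53, kept in 7 of 9 refits, lost without control replicate 2 or day 5 MN replicate 3, log2 fold change as small as 0.47), *Kcnmb1*, the smooth muscle subunit of the large-conductance potassium channel (log2 fold change 0.65, kept in 8 of 9 refits, lost without day 5 MN replicate 1, adjusted p up to 0.058 by limma), and the chloride channel *Clcn2* (log2 fold change -0.61, kept in 7 of 9 refits, lost without day 5 MN replicate 1 or 2, adjusted p up to 0.0685 by limma). Of 85 G protein-coupled receptors and partners, 2 were called higher (2.35% against 2.42% of all genes) and 1 lower (1.18% against 0.789%). Among them, *Adgrl4* of endothelial cells had 236 to 286 and 327 to 405 (log2 fold change 0.50, kept in 5 of 9 refits, lost without control replicate 1, 4 or 5 or day 5 MN replicate 1, log2 fold change as small as 0.45), and *Pde4b*, which degrades cyclic AMP, 45.1 to 63.4 and 29.8 to 43.8 (log2 fold change -0.51, kept in 2 of 9 refits, those without control replicate 2 or day 5 MN replicate 4, adjusted p up to 0.128 by limma and log2 fold change as small as -0.40). Of 277 solute carriers 3 were called higher (*Slc22a23*, *Slc29a4* and *Slc8a1*) and 1 lower (*Slc26a7*). These shares of 1.08% and 0.361% were below the 2.42% and 0.789% of all genes. The shares outside the cell cycle list were 1.33% and 0.802%. *Slc22a23* was kept in 4 of 9 refits, lost without control replicate 1, 3 or 4 or day 5 MN replicate 3 or 4, log2 fold change as small as 0.45, *Slc29a4* was kept in 1 of 9 refits, that without control replicate 2, adjusted p up to 0.122 by limma, *Slc8a1* was kept in 1 of 9 refits, that without day 5 MN replicate 1, adjusted p up to 0.117 by limma and log2 fold change as small as 0.46, and *Slc26a7* was kept in 2 of 9 refits, those without control replicate 2 or day 5 MN replicate 4, adjusted p up to 0.0983 by limma.

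Growth factor and developmental lists held few calls. Called higher were 2.56% of Wnt and 4.76% of Notch genes (2.42% of all genes). Called lower were 1.96% of TGF-beta family genes (0.789% of all genes). *Wnt5b*, a Wnt ligand, rose from 4.30, 3.76, 4.68, 4.81 and 5.02 scaled TPM to 10.3, 7.68, 7.10 and 8.47 (log2 fold change 0.82 ± 0.12 SE, adjusted p = 0.00118, limma), 1 of 39 Wnt genes. *Lfng*, a glycosyltransferase that modifies Notch, had 46.98 to 59.7 and 69.3 to 89.3 (log2 fold change 0.56, kept in 8 of 9 refits, lost without day 5 MN replicate 1, log2 fold change as small as 0.49), 1 of 21 Notch genes. *Gdf10*, a TGF-beta family ligand whose groups overlapped, had 61.3 to 105 and 39.2 to 66.2 (log2 fold change -0.56, kept in 3 of 9 refits, those without control replicate 5 or day 5 MN replicate 1 or 3, adjusted p up to 0.123 by limma and log2 fold change as small as -0.41), 1 of 51 genes of that family. Of 35 YAP and TEAD targets 2 were called, both higher (5.71% against 2.42% of all genes). *Ankrd1* rose from between 2.98 and 4.04 to between 5.80 and 11.9 (log2 fold change 1.12 ± 0.23 SE, adjusted p = 0.0113, limma). *Fjx1* rose from between 1.65 and 2.01 to between 3.21 and 5.20 (log2 fold change 0.93 ± 0.17 SE, adjusted p = 0.00543, limma). *Ccn2*, the target most used as a reporter, had a log2 fold change of -0.01.

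Predicted transcripts left aside, the largest decrease was that of *Mgat5b*, a Golgi enzyme that branches O-mannosyl glycans (chr11:116809621-116878243, GRCm39, plus strand). It stood at 12.4, 9.08, 14.8, 9.17 and 14.1 scaled TPM in controls and 2.61, 2.51, 3.72 and 1.77 at day 5 (log2 fold change -1.98 ± 0.27 SE, adjusted p = 0.000708, limma). Every day 5 MN mouse had less than the lowest control, and at day 1 the values were 6.82, 4.56, 4.92 and 12.8. *Lypd1*, a membrane-anchored modulator of nicotinic receptors (chr1:125795357-125841150, minus strand), fell from 79.2, 95.8, 73.3, 71.7 and 113 to 21.9, 18.7, 27.4 and 36.4 (log2 fold change -1.73 ± 0.23 SE, adjusted p = 0.000639, limma). At day 1 it had stood at 21.3, 31.7, 50.5 and 35.4, below the controls in each of the 4 mice.

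*Aifm3*, a mitochondrial protein of the apoptosis-inducing factor family, stood at 37.8, 36.7, 43.9, 36.2 and 64.7 in controls and 14.99, 15.1, 13.4 and 24.2 at day 5 (log2 fold change -1.35 ± 0.23 SE, adjusted p = 0.00265, limma), after 20.1, 25.2, 39.5 and 22.02 at day 1. Control replicate 5 and day 5 MN replicate 4 each stood above the rest of their group. *Nectin4*, a cell adhesion protein, fell from 5.70, 4.37, 5.27, 5.49 and 5.23 to 1.06, 2.23, 2.38 and 2.13 (log2 fold change -1.26 ± 0.19 SE, adjusted p = 0.0012, limma). The calls of a pair of genes of lower level were each lost without 1 library. *Scgb3a1*, a secretoglobin, had 2.03, 3.57, 2.27, 1.99 and 2.77 in controls and 1.19, 0.485, 0 and 0 at day 5 (log2 fold change -1.89 ± 0.42 SE, adjusted p = 0.0159, limma, kept in 8 of 9 refits, lost without day 5 MN replicate 4, adjusted p up to 0.0508 by limma), and *Tincr*, named for epidermal differentiation, had 3.20, 3.01, 2.72, 3.43 and 4.29 and 0.273, 0.560, 1.67 and 1.80 (log2 fold change -1.42 ± 0.31 SE, adjusted p = 0.0157, limma, kept in 8 of 9 refits, lost without day 5 MN replicate 2, adjusted p up to 0.0607 by limma). At day 1 *Scgb3a1* was at 0.370, 0.271, 1.40 and 1.82 and *Tincr* at 1.68, 1.52, 3.15 and 1.75.

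*Opcml*, a membrane-anchored adhesion protein, fell from between 4.08 and 6.19 to between 1.03 and 3.16 (log2 fold change -1.11), *Peli3*, a ubiquitin ligase of innate immune signalling, from between 9.89 and 12.02 to between 3.92 and 6.08 (log2 fold change -1.11), and *Ccdc73*, a coiled-coil protein, from between 4.48 and 5.74 to between 1.64 and 3.39 (log2 fold change -0.93). Each was called in all 9 refits. *Dusp15*, a phosphatase, had 15.99 to 33.7 and 11.05 to 13.7 (log2 fold change -1.06, kept in 1 of 9 refits, that without control replicate 2, adjusted p up to 0.104 by limma).

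Of 35 podocyte markers, 3 were called lower (8.57% against 0.789% of all genes) and 2 higher (5.71% against 2.42%), and the median log2 fold change was 0.01. *Ddn*, dendrin of the slit diaphragm, stood at 643, 503, 626, 603 and 699 scaled TPM in controls and 406, 427, 381 and 425 at day 5, without overlap (log2 fold change -0.58 ± 0.11 SE, adjusted p = 0.00699, limma). *Plce1*, phospholipase C epsilon, whose loss causes nephrotic syndrome, fell from 84.7, 74.99, 91.5, 88.7 and 99.9 to 46.7, 56.6, 69.98 and 59.8 (log2 fold change -0.60 ± 0.12 SE, adjusted p = 0.0106, limma, kept in 8 of 9 refits, lost without day 5 MN replicate 1, log2 fold change as small as -0.50). The called increases were *Cdkn1c* and *Col4a5*, and *Thsd7a* was the other decrease.

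Other defining podocyte genes were not called. *Nphs1*, nephrin of the slit diaphragm, had a log2 fold change of -0.18, the surface sialoprotein gene *Podxl* one of 0.01, and the transcription factor gene *Wt1* one of -0.24. *Synpo*, the actin-bundling synaptopodin, and *Cd2ap*, an adaptor at the slit diaphragm, passed the adjusted p but not the fold threshold, with log2 fold changes of -0.46 (adjusted p = 0.00197, limma) and -0.29 (adjusted p = 0.0117, limma). *Uchl1*, a deubiquitinating enzyme known to rise in podocytes in membranous nephropathy, had a log2 fold change of 0.66 and was not called (adjusted p = 0.0664, limma). *Hoxc8*, from the list of podocyte transcription factors, fell from between 69.7 and 88.3 to between 49.3 and 55.1 (log2 fold change -0.59 ± 0.09 SE, adjusted p = 0.0012, limma).

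Junction and polarity genes were called 3 down (4.17% against 0.789% of all genes) and 2 up (2.78% against 2.42%) of 72. *Pard3b*, a paralog of the polarity scaffold PAR-3, stood at 78.1, 69.4, 85.1, 85.5 and 93.8 scaled TPM in controls and 45.5, 47.2, 47.7 and 50.8 at day 5 (log2 fold change -0.77 ± 0.09 SE, adjusted p = 0.000191, limma). *Pals1*, a scaffold of the Crumbs polarity complex, fell from 117, 100.1, 124, 106 and 129 to 70.9, 66.3, 70.9 and 73.9 (log2 fold change -0.70 ± 0.09 SE, adjusted p = 0.000374, limma) and *Cgnl1*, the junction protein paracingulin, from 143, 138, 161, 156 and 153 to 98.3, 91.2, 89.2 and 89.4 (log2 fold change -0.70 ± 0.07 SE, adjusted p = 7.96e-05, limma). In each of the 3 the day 5 MN libraries were tightly grouped below all controls. The increases were *Cldn1*, given above, and the junction scaffold *Magi1*, from between 4.64 and 5.33 to between 7.70 and 10.5 (log2 fold change 0.76).

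Among signalling genes of the cytoskeleton, 2 kinases downstream of CDC42 and RAC were lower. *Cdc42bpg*, the gamma isoform of the MRCK kinases, stood at 82.7, 88.8, 85.5, 87.4 and 91.9 in controls and 44.1, 48.6, 48.2 and 49.97 at day 5 (log2 fold change -0.87 ± 0.07 SE, adjusted p = 1.7e-05, limma), and the day 5 MN mice lay far below all controls. *Pak1*, a kinase that regulates actin turnover, had 196, 138, 183, 179.6 and 214 and 108, 136, 119 and 127 (log2 fold change -0.56 ± 0.13 SE, adjusted p = 0.0178, limma, kept in 8 of 9 refits, lost without day 5 MN replicate 1, adjusted p up to 0.066 by limma). Called increases were those of *Arhgap11a* (log2 fold change 1.33) and *Arhgef39* (log2 fold change 1.47), both also in the cell cycle list, and the exchange factor *Kalrn* (log2 fold change 0.73, kept in 3 of 9 refits, those without control replicate 2, 3 or 4, adjusted p up to 0.0651 by limma).

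Guidance receptors were called 2 down (3.33% against 0.789% of all genes) and 1 up (1.67% against 2.42%) of 60. *Ephb1*, an ephrin receptor, fell from between 30.99 and 43.3 to between 18.8 and 24.01 (log2 fold change -0.68 ± 0.11 SE, adjusted p = 0.00271, limma), *Plxna3*, a semaphorin receptor, had 10.9 to 16.03 and 3.58 to 9.98 (log2 fold change -1.03, kept in 7 of 9 refits, lost without control replicate 4 or day 5 MN replicate 2, adjusted p up to 0.0544 by limma), and *Epha6* was higher, with 3.69 to 5.84 and 6.48 to 9.97 (log2 fold change 0.81, kept in 8 of 9 refits, lost without day 5 MN replicate 2, adjusted p up to 0.0616 by limma).

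In absolute level the largest decrease was that of *Dynll2*, a light chain of dynein and myosin V (chr11:87870351-87889154, GRCm39, minus strand). It stood at 507, 502, 550.0, 499 and 533 scaled TPM in controls and 297, 288, 289 and 319 at day 5. Each group varied by little around means of 518 ± 22.3 (SD, n = 5) and 298 ± 14.3 (SD, n = 4), a difference of -0.80 ± 0.06 (SE) on the log2 scale (adjusted p = 1.7e-05, limma). *Shisa3*, which encodes a protein that retains Wnt and FGF receptors, fell from 221, 182, 230.3, 216 and 255 to 114, 134, 108 and 122 (log2 fold change -0.88 ± 0.13 SE, adjusted p = 0.00091, limma), *Zbtb21*, a zinc finger repressor, from 263, 201, 308, 263 and 273 to 162, 152, 143 and 159 (log2 fold change -0.75 ± 0.13 SE, adjusted p = 0.00417, limma), and *Niban2* from 292, 310.5, 299.6, 287 and 301 to 205, 202, 203 and 202 (log2 fold change -0.55 ± 0.06 SE, adjusted p = 7.95e-05, limma). The 4 day 5 MN values of *Niban2* spanned 202 to 205, among the narrowest ranges shown here.

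*Nap1l1*, a histone chaperone, had 369.6 to 439 in controls and 279 to 299 at day 5 (log2 fold change -0.51, kept in 7 of 9 refits, lost without control replicate 4 or day 5 MN replicate 3, log2 fold change as small as -0.49), and *Ntng2*, a netrin family membrane protein, 265 to 347 and 183 to 244 (log2 fold change -0.50, kept in 5 of 9 refits, lost without control replicate 4 or 5 or day 5 MN replicate 1 or 2, log2 fold change as small as -0.42). Further abundant decreases, picked after their values were seen, were *Uaca* of the cytoskeleton (253 to 309 and 174 to 209, log2 fold change -0.56), the mitochondrial topoisomerase *Top1mt* (99.6 to 150.2 and 74.01 to 93.98, -0.60), and the chromatin remodelling ATPase *Smarca2* (191 to 227 and 128 to 149.7, -0.54, kept in 7 of 9 refits, lost without control replicate 5 or day 5 MN replicate 3, log2 fold change as small as -0.49). Decreases of moderate level with small spread, also picked after their values were seen, were *Tshz2*, a developmental zinc finger factor (70.3 to 80.6 and 45.4 to 51.6, -0.61), and *Hoxd4* (40.3 to 46.6 and 28.5 to 32.2, -0.53).

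Metabolic, protein quality and degradation lists held isolated calls. Called higher were 2.63% of stress response, 1.45% of heat shock and 2.78% of lipid synthesis genes, beside 2.42% of all genes. Of the lipid synthesis genes 2.78% were called lower, beside 0.789% of all genes. *Psat1* of serine synthesis, 1 of 38 stress response genes (log2 fold change 0.89, kept in 8 of 9 refits, lost without day 5 MN replicate 2, adjusted p up to 0.0514 by limma), the small heat shock protein *Hspb2*, 1 of 69 (log2 fold change 0.66) and the cholesterol exporter *Abcg1* (log2 fold change 0.61, kept in 8 of 9 refits, lost without day 5 MN replicate 4, adjusted p up to 0.0526 by limma) were higher, and the lipid desaturase *Scd2*, 1 of 36 lipid synthesis genes, was lower (log2 fold change -0.55). *Bok*, a death-promoting BCL2 family member and the called gene of 35 in the cell death list (2.86% against 2.42% of all genes), rose from between 9.84 and 12.6 to between 19.3 and 24.6 (log2 fold change 0.92 ± 0.11 SE, adjusted p = 0.000231, limma). In the p53 list 3 of 35 were called higher (8.57% against 2.42% of all genes). Of these, *Gtse1* (log2 fold change 1.56) and *Psrc1* (log2 fold change 1.92) also belong to the cell cycle list. The third, *Perp*, was kept in 2 of 9 refits, those without control replicate 4 or day 5 MN replicate 4, adjusted p up to 0.0971 by limma and log2 fold change as small as 0.46. Of 265 ubiquitin genes 5 were higher (1.89%) and 2 lower (0.755%), shares below the 2.42% and 0.789% of all genes. Of the 5, 4 (*Ube2c*, *Ube2t*, *Trim59* and *Fbxo5*) are cell cycle genes with log2 fold changes of 3.26, 1.86, 1.59 and 0.82. The others were *Fbxl7* (log2 fold change 0.52, kept in 6 of 9 refits, lost without control replicate 3 or 4 or day 5 MN replicate 2, log2 fold change as small as 0.48), the deubiquitinase *Usp46* (log2 fold change -0.57) and *Asb13* (log2 fold change -0.50, kept in 4 of 9 refits, lost without control replicate 3, 4 or 5 or day 5 MN replicate 2 or 3, log2 fold change as small as -0.45).

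Of 105 glycosyltransferase and sulfotransferase genes, 2 were called higher (1.9% against 2.42% of all genes) and 2 lower (1.9% against 0.789%). Besides *Mgat5b* and *Lfng*, these were *Eogt*, which adds N-acetylglucosamine to extracellular domains, at 54.95 to 61.2 and 76.6 to 105 (log2 fold change 0.54, kept in 8 of 9 refits, lost without day 5 MN replicate 3, log2 fold change as small as 0.44), and *Large2*, which extends the laminin-binding glycan of dystroglycan, at 2.48 to 4.09 and 0.545 to 2.69 with an overlap (log2 fold change -1.02, kept in 1 of 9 refits, that without day 5 MN replicate 4, adjusted p up to 0.129 by limma). Zinc finger genes named Zfp gave 3 calls of 353, all lower (0.85%, near the 0.789% of all genes): *Zfp395* (log2 fold change -0.52, kept in 6 of 9 refits, lost without control replicate 1 or 5 or day 5 MN replicate 2, adjusted p up to 0.0503 by limma and log2 fold change as small as -0.43), *Zfp457* (log2 fold change -0.63, kept in 2 of 9 refits, those without control replicate 2 or day 5 MN replicate 4, adjusted p up to 0.127 by limma) and *Zfp641* (log2 fold change -0.63, kept in 3 of 9 refits, those without control replicate 1 or 2 or day 5 MN replicate 3, adjusted p up to 0.0849 by limma).

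No member was called by limma in 9 of the 46 functional lists. Of all 14322 tested genes, 1576 were higher and 1298 lower at an unadjusted p under 0.05 (limma), the background for the counts that follow. At an unadjusted p under 0.05, 11 genes were higher and 3 lower of 44 in integrins and focal adhesion, 3 and 2 of 28 in ERK feedback and EGF family, 3 and 0 of 35 in NRF2 targets and metallothioneins, and 5 and 1 of 90 in oxidative phosphorylation. The corresponding counts were 1 and 7 of 81 ribosomal protein genes, 8 and 0 of 49 proteasome genes, 3 and 2 of 18 iron handling genes, 0 and 4 of 19 clock genes and 1 and 0 of 18 glucocorticoid targets. Together the functional lists held 134 of the 298 called genes outside the cell cycle list, 96 higher and 38 lower. The other 164, 90 higher and 74 lower, were in none of them. A share of calls near the background is no result about a list, and the lists overlap in members.

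**Figure D5:**
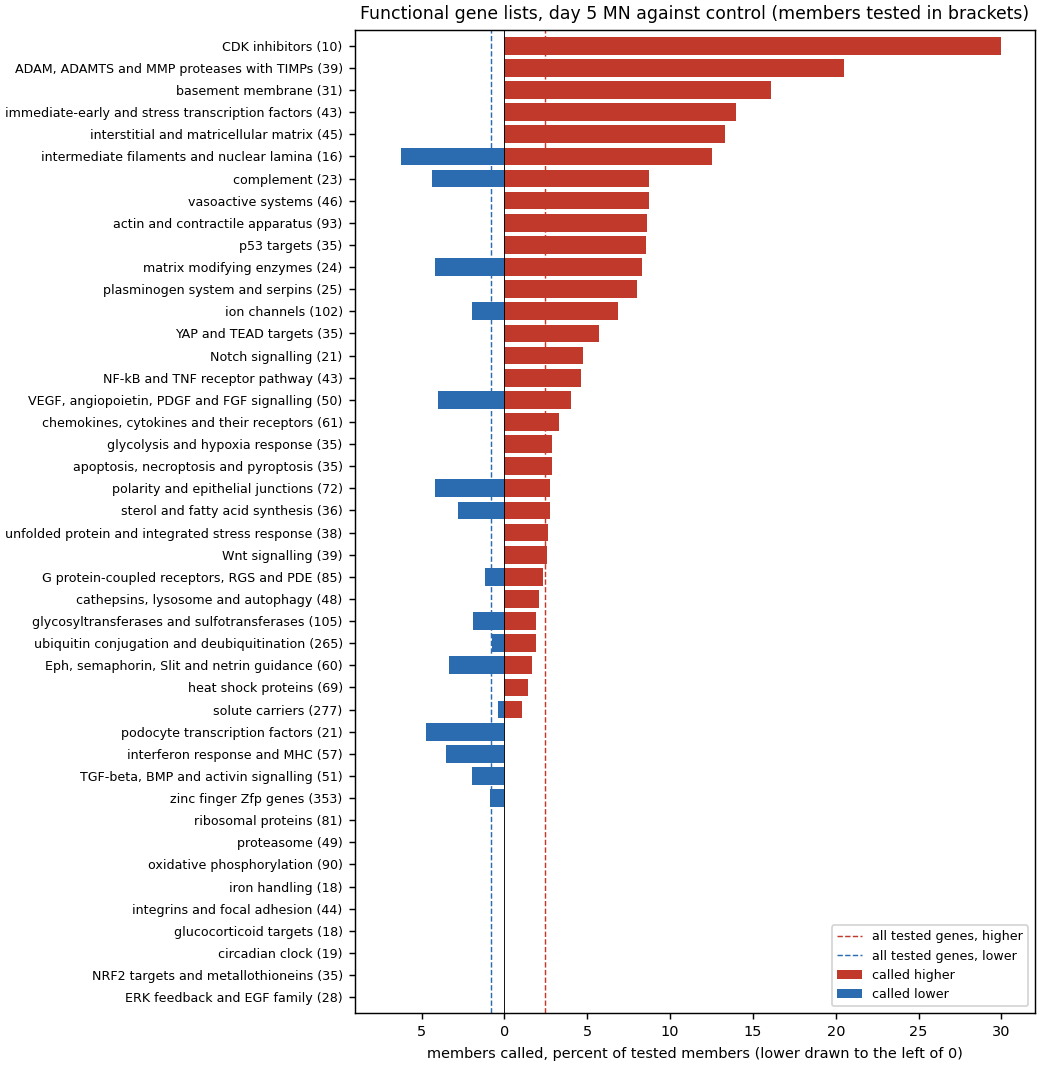
Percent of tested members called higher (bars to the right) and lower (bars to the left) at day 5 MN in the functional gene lists shown, which leave out the cell cycle list and the predicted transcripts. Dashed lines mark the share among all 14322 tested genes, 2.42% higher and 0.789% lower. Matrix, protease, stress transcription factor and kinase inhibitor lists extend farthest to the right, and 9 lists have no bar. The lists were chosen with earlier results of these data known, and the shares were not tested.

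Predicted and Riken transcripts were called in 25 of 1055 cases, 15 higher (1.42% against 2.42% of all genes) and 10 lower (0.948% against 0.789%). These shares were near the 1.33% and 0.802% of genes outside the cell cycle list. *Gm14288* (chr2:175580129-175592886, GRCm39, minus strand) was at most 0.00330 in controls and stood at 3.89, 2.22, 3.18 and 0.566 at day 5 (log2 fold change 2.39 ± 0.41 SE, adjusted p = 0.00345, limma), and *Gm52980* was listed at 0 in all 5 controls and at 2.10, 2.36, 1.15 and 1.27 at day 5. *Gm13537*, a processed pseudogene (chr2:33213183-33213449, plus strand), had 15.9, 9.70, 6.83, 7.23 and 12.2 and 0, 2.12, 2.57 and 3.79 (log2 fold change -2.35, kept in 1 of 9 refits, that without day 5 MN replicate 4, adjusted p up to 0.0919 by limma), and *Gm11032* 5.64, 1.25, 3.62, 3.67 and 0 in controls while listed at 0 in all day 5 MN libraries (kept in 2 of 9 refits, those without control replicate 2 or 5, adjusted p up to 0.0777 by limma). *Gm14288* and *Gm52980*, at or near 0 in controls, entered the test only through libraries of mice given anti-THSD7A IgG. Counting of such loci is uncertain. Of the 291 called genes outside the cell cycle list whose transcripts were compared with all others, 24 had a copy of at least 90% identity over at least 50% of the longest transcript, among them *Gm14288*, *Gm13537* and *Gm52980* as well as *Slfn9*, *Ifitm1*, *Tnfrsf12a* and *Masp2*.

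Promoter windows were available for 131 of the 186 genes called higher and 78 of the 112 called lower outside the cell cycle list. The AP-1 motif TGANTCA was found in 9.25% of windows of the former and 3.26% of the latter, beside 5.22% of all tested windows. The TEAD motif GGAATG had 12.7%, 9.78% and 12.2% in the same order. The cell cycle elements separated the called cell cycle genes instead: the E2F motif, searched as TTTGGCGC or TTTCCCGC, was in 12.4% of their windows and the CHR motif TTTGAA in 42.8%, while genes called higher outside that list had 1.16% and 13.9% and all tested windows 2.75% and 12.3%. The CHR motif shares its leading TTTG with the E2F form TTTGGCGC and its leading TTT with TTTCCCGC. Motifs were searched on both strands, and these shares are descriptions without a test.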

How the data were processed

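Glomerular RNA of 5 control, 4 day 5 MN and 4 day 1 MN mice was sequenced, 1 library per mouse, and samples were grouped by the GEO labels. Per the study's methods and the submitters' processing notes, the authors checked reads with FastQC (0.11.9), trimmed them with Trimmomatic (0.39) and quantified them against GRCm39 transcripts with kallisto (0.46.2). The deposited table holds TPM per gene symbol, which corrects for transcript length and sums to a near-constant total, so counts and read depth are unknown and an increase in abundant genes lowers the rest. The methods name mechanical isolation for glomeruli used in co-immunoprecipitation and do not state the route of the RNA libraries outright.

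Libraries were scaled by their median ratio to the geometric mean over 15772 genes above 0 in every library. Symbols with at least 1 TPM in at least 4 of 13 libraries were tested as log2(scaled TPM + 0.5) with limma (3.58.1, R 4.3.3), using all 13 libraries with an intensity trend, and Benjamini-Hochberg adjustment over 14322 symbols. No test was made on counts. Called genes had an adjusted p below 0.05 and a log2 fold change above 0.5 in size. The 5 control mice of both days served as 1 group. On simulated data, 90% of genes changed by 1 log2 unit and 98% of those changed by 2 were called, with 3 unchanged genes called. The simulated noise was normal and independent between genes, and genes of the lowest levels were given no change. Changes nearer the fold threshold of 0.5 were not simulated, so the share called among such changes or such genes is unknown.

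The gene lists, markers and members were chosen with earlier results of these data known. Genes named were the 12 largest changes per direction outside the cell cycle list and the predicted transcripts without overlap between groups, the 8 largest differences in level per direction, up to 5 called members per list with textbook members, *Thsd7a*, called markers and 2 predicted transcripts per direction. Genes beyond this rule are marked as picked after their values were seen, or are members of a list's count. Alternatives covered the pseudocount, scaling, filters, variance trend, libraries, a replicate block, a tubule covariate, the fold threshold and leaving out each library. Loci came from the GRCm39 annotation, with 1 locus for 13930 tested symbols (97.3%), promoters from RefSeq on GRCm38.p6, and near-identical transcripts from BLAST+ (2.17.0). Some genes and 1 gene list are not reported here. Figures used Python (3.11.15), pandas (2.3.3) and matplotlib (3.10.9).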

Additional observations from a re-analysis of the deposited data

Results flagged for a closer look

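In 290 groups of values, 1 library stood far from the others 19 times by Dixon's criterion, and chance alone flags about 1 in 20 groups. Among controls, replicate 5 was high for *Aifm3* (64.73 scaled TPM, nearest 43.91) and low for *Tpm1* (300.1, nearest 341.4), and it had the highest proximal tubule sum (12289, nearest 5808), the lowest mesangial sum (5752, nearest 7144) and the lowest leukocyte sum (153.4, nearest 204.6). Control replicate 2 was low for *Col4a5* (33.02, nearest 49.99) and *Loxl2* (63.09, nearest 91.91), and it was the highest for *Crct1* (0.1976, all others 0) and *Gm14288* (0.003301, nearest 0.0002103). Control replicate 4 was high for *Ctss* (5.221, nearest 3.993), *Maff* (7.656, nearest 6.031) and *Arhgap11a* (2.338, nearest 1.724).

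At day 5, replicate 1 was high for *Tent5b* (5.435, nearest 2.143), *Myl9* (1182, nearest 912.6), *Adamtsl2* (40.6, nearest 25.05) and *P2rx5* (3.87, nearest 1.927). Replicate 4 was high for *Aifm3* (24.24, nearest 15.1) and low for *Perp* (10.51, nearest 14.82), and replicate 3 was high for *Ube2t* (9.659, nearest 5.35). Without day 5 MN replicate 1, *Tent5b* and *P2rx5* lost their calls and *Myl9* and *Adamtsl2* kept theirs.

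The effects at day 5 and day 1 differed for 5 of the genes quoted at both times (limma, test of day 5 MN against day 1 MN, Benjamini-Hochberg adjustment over all genes). Genes were quoted at both times because their changes against control were among the largest without overlap, in the same day 5 MN libraries. That choice favours a larger effect at day 5, so these tests are no independent evidence of a difference in time. On the log2 scale day 5 exceeded day 1 by 3.91 for *Crct1* (adjusted p = 0.000474), 2.52 for *Col5a3* (adjusted p = 0.000304), 0.96 for *Cdsn* (adjusted p = 0.0291) and 0.79 for *Lrtm2* (adjusted p = 0.0184), and for *Mgat5b* the difference was -1.22 (adjusted p = 0.0425). For *Crct1*, *Col5a3*, *Cdsn* and *Lrtm2* every day 5 MN library was above every day 1 MN library, and for *Mgat5b* every day 5 MN library was below.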

How the results depend on the processing

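The counts of called genes moved by more than 1.5 times under 1 alternative: with the adjusted p alone, 591 genes were higher and 285 lower, of which 408 and 284 lay outside the cell cycle list. Under the other alternatives, genes outside the cell cycle called higher at day 5 numbered between 130 and 190, and genes outside the cell cycle called lower at day 5 between 76 and 132, against 186 and 112. The lowest came from a replicate block (130 and 76; 327 of 348 calls shared with the reported 460). Of the 136 genes named by rule, 98 kept their call under the block. The labels give no pairing of same-numbered mice, and the correlations of same-numbered deviations were 0.011, 0.0078, -0.022 and 0.061. These were not set beside those of different-numbered libraries, and a batch shared between groups was not tested. TPM as deposited gave 157 higher and 132 lower, and moved the median log2 fold change of all genes to -0.04. With 1 library left out, 283 to 336 genes were higher and 78 to 133 lower in all, 141 to 174 and 77 to 132 outside the cell cycle list. None of the 460 called genes changed sign in any of the 19 alternative fits that tested it. Of 136 genes named by rule, 87 were called in every fit that left out 1 library and 84 under every alternative that tested them. The filter of at least 1 TPM in every library tested 107 of the 136. Of 1331 fits of these genes under the other alternatives, 1212 kept the call. TPM give no read depth, so precision is known only from the spread between 5 and 4 mice. Fewer cells and less RNA per cell cannot be told apart, and control mice of each day cannot be separated.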
